A study of Homo sapiens with 4 samples.

Results

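SGCE (epsilon-sarcoglycan) and 8 further genes of the dystrophin-glycoprotein complex were examined in MDA-MB-468 cells, an established line of human breast cancer that carries the p53 contact mutant R273H. The 9 genes were named beforehand, as SGCE with its fellow complex genes SGCA, SGCB, SGCD, DAG1, DMD, UTRN, SNTB1 and SNTB2. Each was read from the single transcript cluster (the set of probes the array assigns to a gene) that names that gene alone. This gave values for 7 of the 9, of 18417 genes with such a cluster. SGCD and DAG1 were not analysed here. SGCE was chosen by its log2 difference between p53si-1 and NS arrays, the other members were selected as its complex partners with the values of this same contrast known, and so the levels and differences of all members are given as a description, without a test.

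Cells of 2 arrays had been transduced with a lentiviral shRNA against the endogenous p53-R273H (p53si-1), and those of the other 2 arrays with a non-targeting lentiviral shRNA (NS), and the cells of all 4 arrays carried the mutant p53. The comparison asks which transcripts differ once mutant p53 is depleted. The study describes the 2 experiments as independent, its methods and its results give different times after transduction, and the level of p53 mRNA was not analysed here. Each arm used 1 shRNA sequence in 1 cell line, so a difference between the shRNAs and one due to the loss of p53 cannot be told apart. The RNA was profiled on the Human Gene 1.0 ST array of Affymetrix, and the authors deposited 1 log2 signal per transcript cluster and array, made with RMA (robust multi-array average, which corrects background, equalizes the arrays and summarizes the probes of a cluster).

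The dystrophin-glycoprotein complex links the actin cytoskeleton to the extracellular matrix across the plasma membrane and is best known from muscle, where its loss causes muscular dystrophies. Dystroglycan binds laminin outside the cell and dystrophin, or its relative utrophin, inside it, while the sarcoglycans form a membrane-spanning subcomplex at its side and the syntrophins are adaptors bound to dystrophin and utrophin. Epsilon-sarcoglycan is a relative of alpha-sarcoglycan that is made in many tissues besides muscle, its gene is imprinted and read from the paternal copy, and its loss causes the movement disorder myoclonus-dystonia.

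Markers of the labelled cell type, an epithelial cancer line, were bright. The 7 measured epithelial markers of 8 listed had mean log2 signals between 8.91 (CLDN4) and 12.42 (KRT8), against a median of 6.59 over all genes. Of 10 markers of skeletal muscle, the master regulators MYOD1, MYOG and MYF5 were at 4.79, 5.43 and 3.98, and MYH1, a myosin heavy chain, was at 2.84. The exceptions were MB (myoglobin) at 9.14 and ACTA1 (skeletal actin) at 7.44. The leukocyte marker PTPRC was at 3.08, while CD14 was at 9.78. Signals of different probe sets do not rank transcripts by abundance, and a dim signal here is only a low reading on the array.

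Among the sarcoglycans, SGCE (transcript cluster 8141035, chromosome 7) was much lower following p53-R273H knockdown, SGCB was slightly lower and SGCA was level. SGCE had log2 signals of 8.35 and 8.26 on the p53si-1 arrays, against 9.45 on each of the NS arrays. Both p53si-1 arrays thus lay below both NS arrays, with a gap of 1.10 between the nearest pair, and the NS arrays were nearly identical. The log2 fold change was -1.14 with a standard error of 0.08 (limma, n = 2 arrays each), which is a signal 2.21-fold lower. By size of decrease SGCE stood at position 3 of 18417 genes. It was the only member to differ by over 1.5-fold, the single threshold the study states for its arrays, which 0.652% of all genes passed downward, 0.271% upward and 0.923% in either direction. As SGCE was chosen for this difference, nothing is read from these shares. Between same-numbered arrays the SGCE difference was -1.10 for replicate 1 and -1.19 for replicate 2. In RNA from whole cultures, fewer cells expressing a gene and less RNA per cell cannot be told apart.

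SGCA (alpha-sarcoglycan, the striated muscle counterpart of SGCE, chromosome 17) had log2 signals of 5.86 and 5.90 with p53si-1, against 5.91 and 5.88 with NS shRNA. The groups overlapped, and the log2 fold change was -0.01 (standard error 0.08). SGCB (beta-sarcoglycan, which forms the core of the sarcoglycan subcomplex, chromosome 4) had 7.28 and 7.42 with p53si-1 and 7.54 and 7.82 with NS shRNA. The groups did not overlap, but the gap of 0.11 was smaller than the 0.28 by which the NS arrays differed from each other. Its log2 fold change was -0.32 with a standard error of 0.12, and -0.19 without NS replicate 2. In both groups replicate 2 read higher than replicate 1 for SGCB, by 0.14 with p53si-1 and by 0.28 with NS shRNA.

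Transcripts of the proteins that couple the complex to actin differed less than that of SGCE. DMD (dystrophin, chromosome X) had log2 signals of 4.47 and 4.45 with p53si-1, against 4.74 and 4.82 with NS shRNA. Both p53si-1 arrays lay below both NS arrays and the spread within each group was small, with SDs of 0.017 for p53si-1 and 0.056 for NS (n = 2 arrays each). The log2 fold change was -0.32 (standard error 0.08). The gene was dim, with a mean signal at percentile 23.6 of all genes, and RMA pulls differences of dim probe sets toward 0. UTRN (utrophin, the widely expressed relative of dystrophin, chromosome 6) had 6.25 and 6.30 with p53si-1 and 6.21 and 6.59 with NS shRNA. Here the p53si-1 arrays fell between the NS arrays. The log2 fold change of UTRN was -0.12 with a standard error of 0.13, and it was 0.07 without NS replicate 2, so no direction is given for it.

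The syntrophins, adaptors that tether channels and signaling proteins to the complex, read higher with p53si-1. SNTB2 (beta-2-syntrophin, chromosome 16) had log2 signals of 8.09 and 8.14 with p53si-1, against 7.78 and 7.82 with NS shRNA. The groups were well apart and each was tight, with SDs of 0.040 for p53si-1 and 0.028 for NS (n = 2 arrays each). Its log2 fold change was 0.32 (standard error 0.08). SNTB1 (beta-1-syntrophin, chromosome 8) had 7.97 and 8.13 with p53si-1 and 7.89 and 7.90 with NS shRNA. The groups did not overlap, yet the gap of 0.07 was smaller than the difference of 0.16 between the p53si-1 arrays. The log2 fold change of SNTB1 was 0.15 with a standard error of 0.09, and it was 0.07 without p53si-1 replicate 2 and 0.23 without p53si-1 replicate 1.

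**Figure D1:**
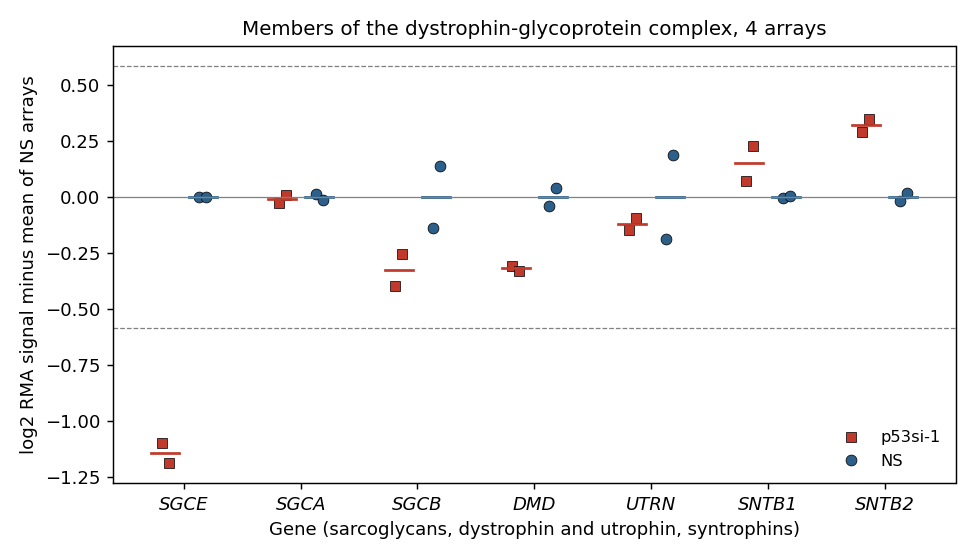
The vertical axis gives the log2 RMA signal of an array after the NS mean of the gene is subtracted, for the 7 measured members. Red squares are p53si-1 arrays, blue circles are NS arrays, short bars are group means (n = 2 arrays each) and dashed lines mark 1.5-fold. SGCE lies at -1.14 and the other 6 members lie between -0.32 and 0.32.

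Members of the complex thus did not share a direction. Of the 7 measured members, 3 (SGCE, SGCB and DMD) had both p53si-1 arrays below both NS arrays and 2 (SNTB1 and SNTB2) had both above. Over all genes 22.6% were separated downward and 19.9% upward, and since the members were chosen with this contrast known, their counts are not set against these shares. The median log2 fold change of the 7 members was -0.12, which is the value of UTRN. It is likewise not set against all genes. The spread between replicates differed among the members. SGCE, DMD, SNTB2 and SGCA had pooled SDs of 0.046, 0.041, 0.034 and 0.023, at percentiles 5.90 to 19.3 of the 18417 genes, while SGCB and UTRN had 0.156 and 0.191, at percentiles 81.5 and 89.6.

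**Figure D2:**
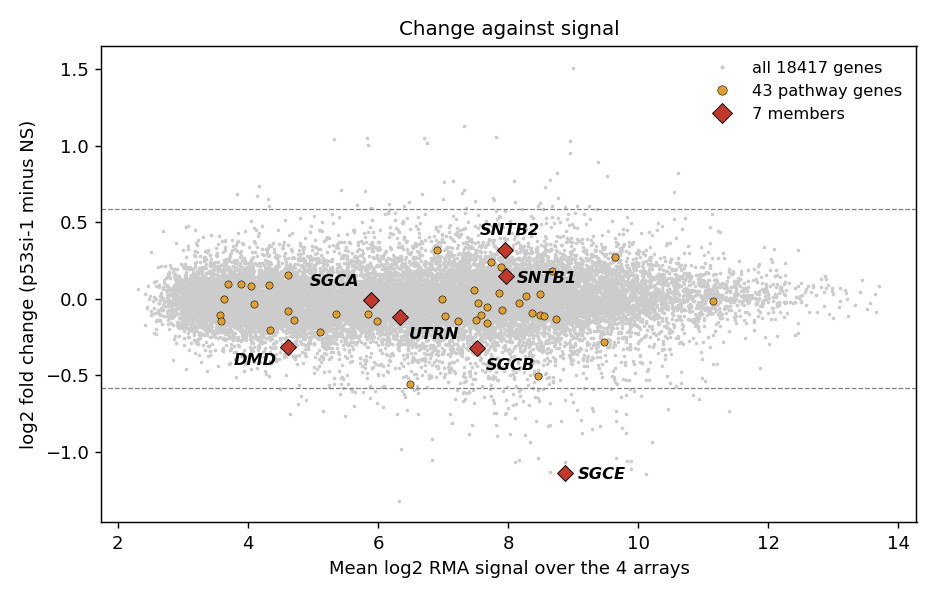
The vertical axis gives the log2 fold change of p53si-1 over NS and the horizontal axis the mean log2 RMA signal, with 1.5-fold as dashed lines. Red diamonds are the 7 measured members, orange circles are 43 further genes of the pathway and grey points are all 18417 genes. SGCE lies far below the other members at a mean signal of 8.88.

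Further genes of the pathway were taken as 4 lists of 51 genes, of which 43 were measured. None of the 43 passed an adjusted p of 0.05 from limma over all genes, where 0.109% of all genes passed, and none differed by over 1.5-fold. At an unadjusted p under 0.05 from limma there were 5 of 43, which is 11.6%, against 12.3% of all genes. Both p53si-1 arrays lay beyond both NS arrays for 20 of the 43, or 46.5%, against 42.5% of all genes.

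The extracellular partners held the largest differences. Of 11 measured matrix ligands 9 had a lower mean with p53si-1, as did 52.6% of all genes, and the median of the list was -0.11. LAMB1 (laminin beta-1 chain) had log2 signals of 6.28 and 6.17 with p53si-1, against 6.84 and 6.71 with NS shRNA. LAMC1 (laminin gamma-1 chain, the partner of LAMB1 in several laminin trimers) had 8.18 and 8.22 with p53si-1 and 8.56 and 8.85 with NS shRNA. For both chains the groups were separated, but neither passed over all genes. The log2 fold change of LAMB1 was -0.56 (standard error 0.09, adjusted p = 0.098 from limma), and that of LAMC1 was -0.51 (standard error 0.11, adjusted p = 0.176 from limma). Over the alternatives the adjusted p from limma ran from 0.0703 to 0.378 for LAMB1 and from 0.102 to 0.466 for LAMC1. LAMB1 passed 1.5-fold without p53si-1 replicate 1 or NS replicate 2, at -0.61 and -0.62. It was at -0.50 without p53si-1 replicate 2 and -0.49 without NS replicate 1. LAMC1 passed 1.5-fold without NS replicate 1, at -0.65, and was at -0.36 without NS replicate 2. The next by size was BGN (biglycan, a small matrix proteoglycan) at -0.15, whose arrays overlapped between the groups. Without p53si-1 replicate 2 or NS replicate 1 BGN was at -0.0059 and -0.015, and without p53si-1 replicate 1 or NS replicate 2 at -0.29 and -0.28. Laminin alpha chains carry the domains that bind dystroglycan, and LAMA1, LAMA2, LAMA4 and LAMA5 were listed here. These differed little, at -0.11 to 0.09. LAMA1 and LAMA2 were dim, at mean signals of 4.33 and 4.62, where RMA pulls differences toward 0. AGRN (agrin) and HSPG2 (perlecan), other dystroglycan ligands, were at -0.12 and -0.10.

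Dystroglycan binds laminin only through a sugar chain built on it in the secretory pathway. Of 14 measured enzymes of that chain and of its sugar donors, 10 (71.4%) had a lower mean with p53si-1, against 52.6% of all genes. The list median was -0.08, and none passed. B4GAT1, which primes the chain for extension, had 7.10 and 7.04 with p53si-1, against 6.86 and 6.64 with NS shRNA. B3GALNT2, which adds a sugar to the core of the chain, had 9.32 and 9.35 with p53si-1 and 9.57 and 9.67 with NS shRNA. The transcripts of these 2 enzymes thus differed in opposite directions. Their log2 fold changes were 0.32 (standard error 0.10, adjusted p = 0.311 from limma) and -0.29 (standard error 0.09, adjusted p = 0.272 from limma). B4GAT1 was at 0.20 without NS replicate 2. The third by size was the kinase POMK at 0.18, with 0.08 without NS replicate 1 and 0.28 without NS replicate 2, while the mannosyltransferases POMT1 and POMT2, which start the chain, were at 0.03 and -0.11.

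Of 9 measured other subunits of the complex, 5 (55.6%) had a lower mean with p53si-1, against 52.6% of all genes. The list median was -0.03. CAV3 (caveolin-3 of muscle), SSPN (sarcospan) and DRP2 (a dystrophin relative) had the largest differences, at -0.22, 0.21 and -0.21. The arrays of CAV3 and SSPN overlapped between the groups, and a single array set each value. CAV3 was at 0.07 without p53si-1 replicate 2 and -0.51 without p53si-1 replicate 1, and SSPN at -0.03 without NS replicate 2 and 0.45 without NS replicate 1. DRP2 was dim, at a mean signal of 4.33, and its groups were separated by a gap of only 0.01. Its sign therefore could not turn without 1 array. It was at -0.12 without p53si-1 replicate 2, -0.10 without NS replicate 1 and -0.31 without NS replicate 2. DTNB (beta-dystrobrevin, a cytoplasmic partner of dystrophin) was at -0.03. Among the dim subunits were DTNA, SGCZ, SNTG1 and SNTG2 at mean signals of 3.89, 3.57, 3.69 and 4.10.

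Among 9 measured cytoplasmic partners the median log2 fold change was -0.0019. GRB2, an adaptor that binds dystroglycan, had 9.73 and 9.83 with p53si-1, against 9.53 and 9.49 with NS shRNA. It was separated between the groups and did not pass, being 0.28 higher on the log2 scale (limma, standard error 0.08, adjusted p = 0.284). SYNM (synemin, an intermediate filament protein that binds dystrophin and utrophin) was at 0.24 and ANK2 (an ankyrin that helps to place dystrophin) at -0.14. SYNM was at 0.16 without NS replicate 1, and ANK2 at -0.08 without NS replicate 2. PLEC (plectin, a cytoskeletal linker) was at 0.02.

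**Figure D3:**
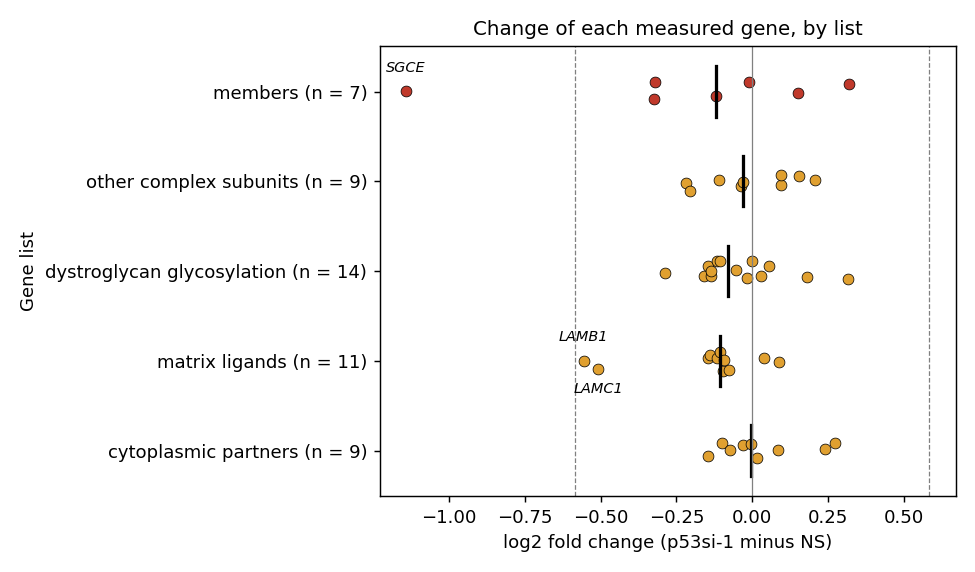
The horizontal axis gives the log2 fold change of p53si-1 over NS, by gene list. Points are genes (members in red), bars are list medians and dashed lines mark 1.5-fold. SGCE alone lies beyond 1.5-fold, and the laminin chains LAMB1 and LAMC1 come nearest to it among the further genes.

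Markers of other cells were read beside these values. The 9 markers of smooth muscle and fibroblasts averaged log2 signals of 5.00 and 4.92 on the p53si-1 arrays, against 5.03 and 5.08 on the NS arrays. Of these 8 (88.9%) had a lower mean with p53si-1, against 52.6% of all genes. The largest decrease was that of ACTA2 (smooth muscle actin) at -0.28. By limma none passed an adjusted p of 0.05. ACTA2 alone had an unadjusted p under 0.05, or 11.1% of the list against 12.3% of all genes. The 10 markers of skeletal muscle averaged 5.43 and 5.33 with p53si-1 and 5.42 and 5.33 with NS shRNA, and the groups overlapped. The 4 measured leukocyte markers averaged 5.28 and 5.30 with p53si-1, against 5.30 and 5.28 with NS shRNA. The epithelial markers averaged 11.14 and 11.02 with p53si-1 and 11.02 and 10.93 with NS shRNA, and the largest difference among them was CLDN4 (claudin-4, a tight junction protein) at 0.52. CLDN4 had log2 signals of 9.17 on each p53si-1 array, against 8.76 and 8.54 on the NS arrays. By limma its unadjusted p was 0.0019 and its adjusted p was 0.129, so it did not pass over all genes. Of the 7 measured epithelial markers 5 had a higher mean with p53si-1 and 2 (28.6%) had a lower one, against 52.6% of all genes lower. The part of these marker differences in the SGCE difference was not tested.

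SGCE lies on chromosome 7 head to head with PEG10, a gene derived from a retrotransposon that shares its imprinting, so the measured genes nearest to SGCE in the RefSeq order were read with it. PEG10 had log2 signals of 9.71 and 9.61 with p53si-1, against 9.80 and 9.83 with NS shRNA. Both p53si-1 arrays lay below both NS arrays, though by far less than for SGCE. The log2 fold change of PEG10 was -0.15 with a 95% interval of -0.36 to 0.05 (adjusted p = 0.53 from limma). On the other side of SGCE, CASD1 (a sialic acid O-acetyltransferase) had 7.88 and 8.04 with p53si-1 and 7.64 and 7.83 with NS shRNA. CASD1 was thus higher rather than lower, at 0.22 with a 95% interval of -0.04 to 0.48 (adjusted p = 0.47 from limma), and it was at 0.14 without p53si-1 replicate 2 and 0.13 without NS replicate 1. The difference of PEG10 was -0.10 without p53si-1 replicate 2. Farther out, COL1A2 (a collagen I chain) and BET1 (a vesicle transport protein) were at -0.08 and 0.18, and PON1 (paraoxonase) was at -0.13. COL1A2 was at -0.0030 without p53si-1 replicate 2 and -0.16 without p53si-1 replicate 1, and PON1 at -0.07 without NS replicate 1. PPP1R9A (neurabin, an actin-binding scaffold) was at 0.51 with a standard error of 0.23, but its NS arrays read 5.61 and 6.38, and without NS replicate 1 the value was 0.13, against 0.90 without NS replicate 2. By limma none of these 6 neighbours passed 0.05, adjusted or unadjusted.

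**Figure D4:**
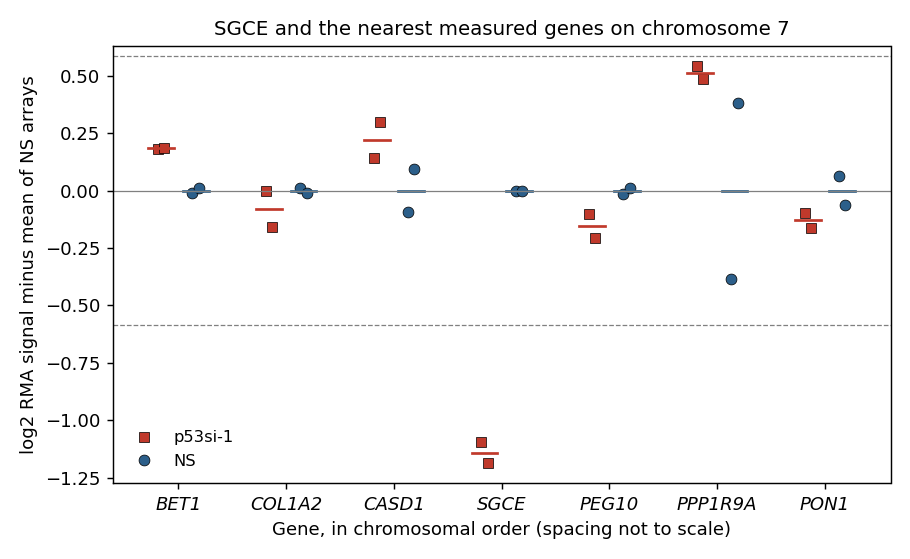
The vertical axis gives the log2 RMA signal of an array after the NS mean of the gene is subtracted, for SGCE and the 3 nearest measured genes on either side of it on chromosome 7, in chromosomal order. Red squares are p53si-1 arrays, blue circles are NS arrays, bars are group means and dashed lines mark 1.5-fold. SGCE lies at -1.14 while its neighbours lie between -0.15 and 0.51.

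The genes whose profile was most like that of SGCE were found by the root mean square difference between log2 deviations from each gene's own mean over the 4 arrays. The closest was TPM1 (tropomyosin, which coats actin filaments), at a root mean square difference of 0.049. It was followed by the splicing factor subunit SF3B6 at 0.056, ECHDC1 (a metabolite-repair enzyme) at 0.065, TMBIM1 at 0.077 and the oligosaccharyltransferase subunit OSTC at 0.084. TPM1 had 8.18 and 7.96 with p53si-1, against 9.18 and 9.23 with NS shRNA. All 5 were lower with p53si-1, by construction of the measure, with log2 fold changes between -1.15 and -1.06. With 4 arrays a profile holds little beyond the difference between the groups, and the likeness is a description only.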

How the data were processed

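RNA of 2 p53si-1 and 2 NS arrays was compared. The authors made the deposited values with GCOS, Affymetrix Expression Console and RMA, per the labels, as 1 value per transcript cluster and array. The deposited values run from 1.75 to 14.3 with array medians between 5.66 and 5.69 and were taken as log2 signals. The RMA settings were not given in the sources used here. This method removes a shift common to most transcripts. Of 33297 clusters, 19460 name 1 symbol in the platform annotation, and the cluster with the highest mean signal stood for each of 18417 genes. No filter or further normalization was applied. Replicate spread, with 2 arrays per group, limits the precision, and with 4 arrays the smallest two-sided p that permutation allows is 0.333.

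All genes were fitted together by lmFit and eBayes of limma 3.58.1 (R 4.3.3), with Benjamini-Hochberg adjustment over all of them. The steps were also run on simulated data with noise drawn independently for each array. In the deposited data same-numbered arrays deviated together across genes (correlation 0.24), a feature that the simulation does not cover. The members and lists were chosen with earlier results of these data known. Named further genes are the 3 with the largest difference in each list, any past 1.5-fold or an adjusted p of 0.05, the 3 measured neighbours on either side of SGCE and the 5 profiles nearest to it. A few more were added after their values were seen, to give the known partners of a named gene. Order on the chromosome is that of RefSeq GRCh38.p14. The alternatives left out each array, renormalized or centred the arrays, averaged clusters, left out dim genes, changed the prior variance or the fold criterion, and used the replicate number as a block.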

Additional observations from a re-analysis of the deposited data

How the results depend on the processing

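The SGCE log2 fold change ran from -1.19 to -1.10 over 9 alternatives, the highest and lowest without 1 p53si-1 array, and SGCE stayed the only member past 1.5-fold, also at 2-fold. The values of SGCB, DMD, SNTB1 and SNTB2 kept their sign in all 9, with ranges of -0.46 to -0.19, -0.37 to -0.27, 0.07 to 0.23 and 0.29 to 0.35. SGCA kept its sign in 4 and UTRN in 7 of 9. The averaging of clusters, 1 of the 9, could not change these values, as each measured member has 1 cluster. For SGCE, SGCB, DMD, SNTB1 and SNTB2 the arrays were separated between the groups. Their sign could therefore not turn without 1 array or between same-numbered arrays. Only quantile normalization and median centring could have turned it, so the kept signs say little. Differences between same-numbered arrays were added after the data were seen. Among the named further genes, 2 turned sign, CAV3 (from -0.51 to 0.070 without 1 array) and SSPN (from -0.029 to 0.45 without 1 array). LAMB1 and LAMC1, within 1.5-fold in the main fit, passed it without some single arrays. No further gene of the 4 lists passed an adjusted p of 0.05 from limma under any alternative run. Over all genes, 20 passed, against 62 after median centring, 89 without the 25% of genes with the lowest signal, 149 with the prior variance trend, 12 with the replicate number as a block, and 0 to 1 without any 1 array. Genes past 1.5-fold numbered 170, against 22 past 2-fold and 199 to 295 without 1 array. Same-numbered arrays deviated together across genes (correlation 0.24), but no source says that the number marks a shared culture, and the block changed no call among the listed genes.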
